A study of Mus musculus with 12 samples.

Results

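The 57 genes described here act in cell division, from the cyclins and kinases that start mitosis to the proteins that attach chromosomes to the spindle, pull them apart and split the cell. They were chosen by symbol, with earlier results of these data known, and each matched 1 of the 46517 genes in the count table. During mitosis, cyclin B with the kinase Cdk1 drives entry, condensin compacts the chromosomes, and kinetochores built on the centromeric histone Cenpa bind microtubules. The spindle assembly checkpoint holds back the anaphase-promoting complex and its activator Cdc20 until every kinetochore is attached. Transcripts of these genes are low in cells that have left the cycle, such as most mature astrocytes, and high in dividing progenitors. Granule neuron progenitors (GNPs) are the cells that give rise to cerebellar granule neurons and, in some medulloblastomas, to the tumor.

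The study measured RNA in 12 mouse libraries, 4 each of normal astrocytes, tumor-derived astrocytes and tumor GNPs. Per the labels, cells were cut individually from thin frozen sections with a laser, and short 3′ ends of their cDNA were amplified and sequenced. The astrocyte entries give the strain as C57BL/6, while the strain number of the GNP entries rises by 1 from entry to entry, from C57BL/7 to C57BL/10. A sample sheet deposited with the counts gives cerebellum and adult astrocytes for normal replicate 1, tumor and tumor astrocytes for the tumor-derived group, cultured tumor GNPs for GNP replicate 1 and tumor GNPs without that word for replicate 3. All 4 GNP titles and table columns end in "cul", while the extraction protocol on every entry, GNPs included, describes cells cut from tumor sections, so the labels do not settle whether the GNPs were cultured. Genotype, treatment, the tumor model, ages (other than the word adult) and the way cells were recognised are not stated by the labels used here, and no library is tied to an animal. The p-values therefore measure the spread between these libraries, which may be partly technical.

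The libraries held between 8154401 and 12626596 counts. Among the GNPs, replicates 1, 2 and 4 nearly matched, unlike any other libraries of 1 group: over genes with low counts the chi-square per degree of freedom was 1.21 to 1.59 in their 3 pairs and 4.17 to 14.25 in the other 15 pairs. Their counts were summed into 1 sample for every test, and GNP means and SDs have n = 2, the mean of these 3 libraries and replicate 3. Astrocyte markers summed to 5850–12900 normalised counts (CPM, counts scaled to a common library size) in normal, 1000–2260 in tumor-derived and 489–754 in GNP libraries. The single markers were mixed. Of the 9 tested, 6 had a negative and 3 a positive log2 fold change in tumor-derived against normal astrocytes, from -3.84 to 3.06. Against GNPs, 7 were positive and 2 negative in tumor-derived astrocytes. In bulk samples like these, fewer cells of a type and less RNA per cell cannot be told apart.

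Mitosis genes were low in normal astrocytes and high in tumor-derived astrocytes. Their summed level, in CPM after TMM normalisation, was 301, 303, 325 and 358 in the normal libraries, in rising order, and 3890 to 4570 in the tumor-derived libraries. The means were 322 ± 26.6 (SD, n = 4) and 4080 ± 325 (SD, n = 4), a ratio of 12.7, and the groups did not overlap. In GNPs the sum was 6560 ± 4.75 (SD, n = 2), with single libraries between 6450 and 6630, so that the tumor-derived mean was 62.2% of the GNP mean. The members took 0.0282–0.0378% of all counts in normal, 0.316–0.402% in tumor-derived and 0.714–0.775% in GNP libraries. Between 22 and 37 of the 57 genes had a count in a normal library, against 56 or 57 in every tumor-derived and GNP library.

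Markers of other cells differed between the same groups. Of 10 granule progenitor markers tested, 7 were called higher in tumor-derived than in normal astrocytes and 0 lower, against 17.4% and 16% of all genes. The list summed to 175–334 CPM in normal, 1210–2260 in tumor-derived and 1200–1360 in GNP libraries. Atoh1, the factor that defines granule progenitors, had no count in normal libraries, 3.74, 3.93, 4.99 and 13.2 CPM in tumor-derived and 56.6, 54.8, 24.7 and 59.4 in GNP libraries, so its tumor-derived mean was 15.9% of the GNP mean. The list as a whole did not follow Atoh1. Its 10 tested markers had a median log2 fold change of 0.39 in tumor-derived astrocytes against GNPs, with 6 positive and 4 negative values. Microglia markers summed to 168–441 CPM in normal, 559–782 in tumor-derived and 1.35–6.81 in GNP libraries. Purkinje cell markers summed to 3620–13200, 141–548 and 86–90.4 CPM in the same order. Mature neuron markers summed to 1090–1660, 79.5–263 and 105–152 CPM, and oligodendrocyte markers to 180–702, 75.7–162 and 22–24.5 CPM. Oligodendrocyte precursor markers summed to 8.68–30.7, 67.3–138 and 23.8–28.2 CPM, and endothelial markers to 70.1–186, 154–189 and 2.49–4.11 CPM. The part of RNA from any of these cell types in the mitosis results was not tested.

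**Figure D1:**
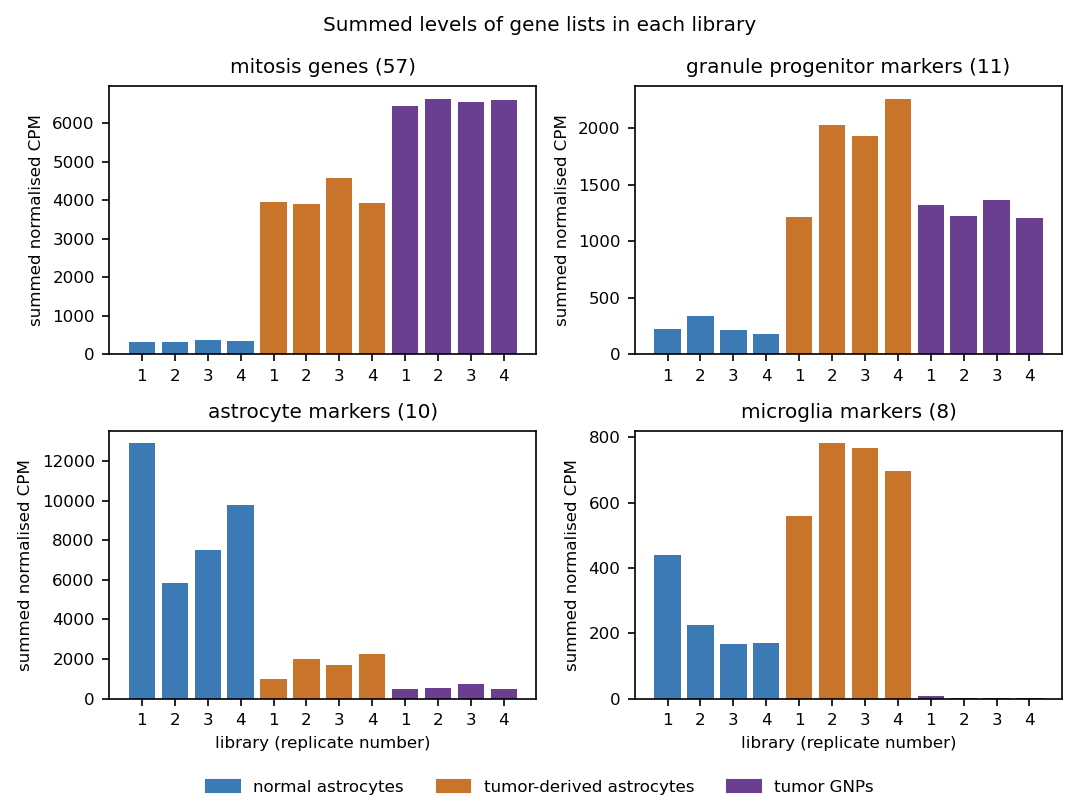
Summed normalised CPM in each of the 12 libraries (bars, coloured by group) for the 57 mitosis genes and for granule progenitor, astrocyte and microglia markers. The mitosis sum lies between 301 and 358 in the normal, 3890 and 4570 in the tumor-derived and 6450 and 6630 in the GNP libraries.

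**Figure D2:**
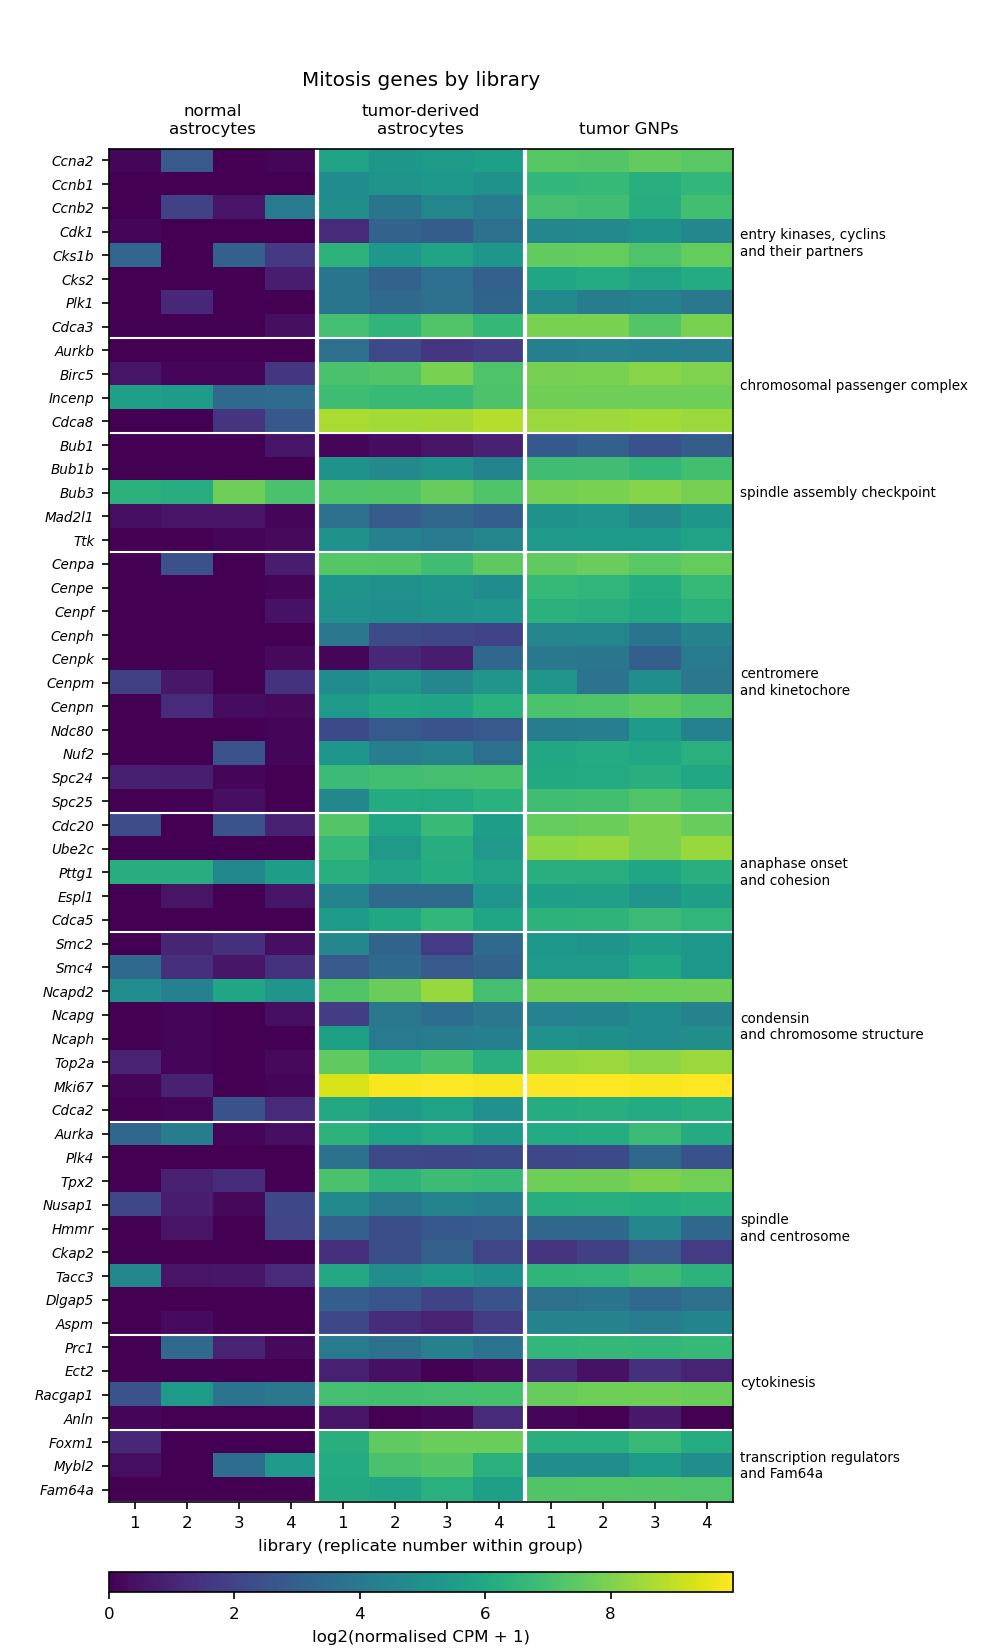
Level of each of the 57 mitosis genes (rows, ordered by role) in each of the 12 libraries (columns, by group and replicate number), as log2(normalised CPM + 1) on the colour scale. Most rows are dark (low) in the normal columns and brighter (higher) in the tumor-derived and GNP columns, whereas Bub3 and Pttg1 have similar colours in all 12.

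Of the 55 members tested, 46 (83.6%) were higher in tumor-derived than in normal astrocytes at an adjusted p under 0.05 (edgeR's quasi-likelihood test, Benjamini-Hochberg over 14393 genes) and 0 were lower. Over all genes tested, 17.4% were called higher and 16% lower. The remaining 9 members did not pass, and Ect2 and Anln, regulators of the cleavage furrow, had too few counts to be tested. The median log2 fold change of the tested members was 6.61, against 0.05 over all genes. Of the 57 genes, 11 had no count in any normal library, and with these at the lower bound that 3 counts in each library allow, the median was 5.14. That median includes the bound of Ect2, which was not tested. Another 9 had only 1 to 3 counts over the 4 normal libraries, so their ratios carry wide counting intervals. All 4 tumor-derived libraries lay above all 4 normal libraries for 49 of the 55 members (89.1%), against 20.9% of all genes, and below them for 0, against 16.1%.

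Promoter sequences are shown beside this pattern because many genes of late cell cycle are known to carry a cell cycle homology region (CHR), spelled TTTGAA, and CCAAT boxes near their start. In RefSeq promoters of GRCm38.p6, which run from 250 bases before to 50 after each gene start, 47 of the 57 members had an entry. TTTGAA on either strand was in 31 of the 47 (66.0%, Wilson 95% interval 51.7–77.8) and in 15.7% of 16372 promoters of all genes. CCAAT on either strand was in 35 (74.5%) against 39.1% of all. At least 2 CCAAT matches were present in 48.9% of the member promoters and in 13.5% of all. Both motifs together occurred in 59.6% and 6.55%. The motifs were searched separately, so neighbouring matches may share end letters, and a match describes letters and not binding. Matches to TTTGAA lay at a median of 9 bases before the start, with 30 of 40 within 50 bases of it, and CCAAT matches at a median of 71 bases before it. Among members with a promoter, TTTGAA was found in 25 of 37 called higher in tumor-derived astrocytes and in 4 of 8 not called.

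**Figure D3:**
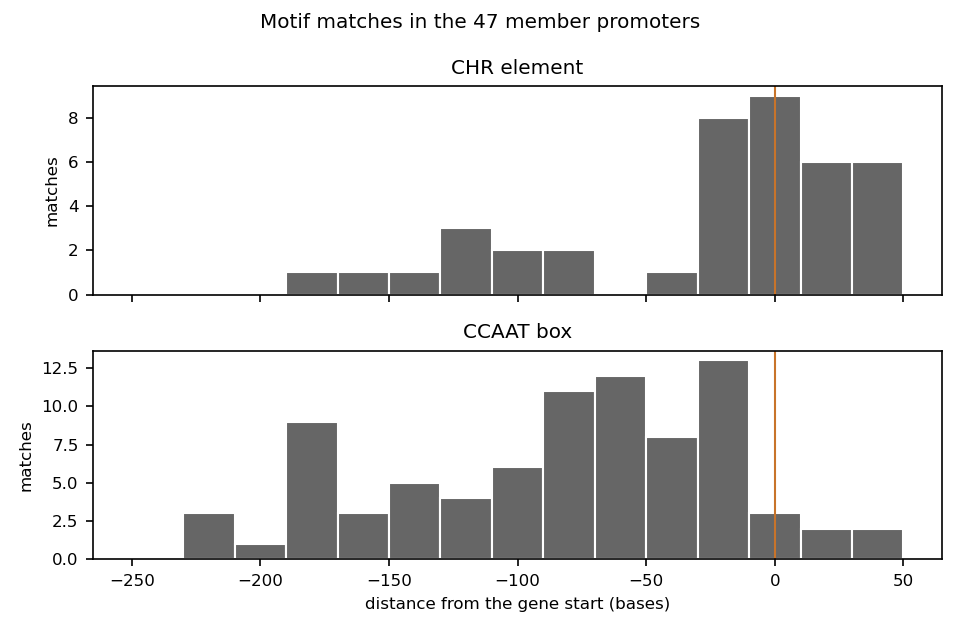
Number of matches to the CHR element (top) and the CCAAT box (bottom), on either strand, by distance in bases from the gene start (orange line) in 47 promoters. CHR matches gather within 50 bases of the start and CCAAT matches mostly upstream of it. The window holds 250 bases before the start and 50 after it, so most of it is upstream. Positions in the promoters of all genes were not compared.

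The 150 bases before the RefSeq start are shown for 4 members that rose, Cdk1, Cdc20, Ube2c and Mki67, and for Bub3 and Pttg1, the pair whose level was high in normal astrocytes as well. Capitals mark TTTGAA and CCAAT or their reverse complements TTCAAA and ATTGG, and each run reads 5′ to 3′ along the gene's own strand.
Cdk1, chr10:69352913-69353062, minus strand: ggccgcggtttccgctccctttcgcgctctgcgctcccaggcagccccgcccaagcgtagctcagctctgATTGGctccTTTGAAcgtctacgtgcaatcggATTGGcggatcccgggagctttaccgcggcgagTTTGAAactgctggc
Cdc20, chr4:118437344-118437493, minus strand: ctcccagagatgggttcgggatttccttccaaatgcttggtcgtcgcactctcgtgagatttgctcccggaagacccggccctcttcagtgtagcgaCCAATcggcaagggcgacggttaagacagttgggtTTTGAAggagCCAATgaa
Ube2c, chr2:164769779-164769928, plus strand: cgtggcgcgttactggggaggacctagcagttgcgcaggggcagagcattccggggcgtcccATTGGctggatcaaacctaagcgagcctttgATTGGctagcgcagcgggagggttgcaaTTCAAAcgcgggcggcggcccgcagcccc
Mki67, chr7:135716380-135716529, minus strand: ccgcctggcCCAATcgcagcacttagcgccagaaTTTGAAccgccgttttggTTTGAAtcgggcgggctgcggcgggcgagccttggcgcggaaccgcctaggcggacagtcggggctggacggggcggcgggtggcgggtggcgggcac
Bub3, chr7:131560220-131560369, plus strand: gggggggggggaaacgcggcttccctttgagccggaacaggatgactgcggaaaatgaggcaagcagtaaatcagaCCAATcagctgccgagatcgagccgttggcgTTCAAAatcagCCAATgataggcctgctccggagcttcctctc
Pttg1, chr11:43425982-43426131, minus strand: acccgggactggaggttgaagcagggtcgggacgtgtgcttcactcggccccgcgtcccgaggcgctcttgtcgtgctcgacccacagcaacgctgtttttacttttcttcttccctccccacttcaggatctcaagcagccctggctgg
Both motifs stand in the stretch of Cdk1, Cdc20, Ube2c, Mki67 and Bub3, and neither stands in that of Pttg1. The Pttg1 stretch lies wholly inside the counted gene (chr11:43420250-43426251, minus strand), whose annotated start is farther upstream. The bases before that annotated start were not searched, so whether they hold the motifs is not known here.

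Among the genes of mitotic entry, 7 of 8 rose in tumor-derived astrocytes, and their summed level was 26 times the normal one and 35.5% of that in GNPs. In this and the following roles, the number that rose can be set beside the 17.4% of all genes called higher. Cdca3, which helps to trigger mitotic entry through degradation of Wee1, had 0, 0, 0 and 0.293 CPM in normal, 126, 90.6, 152 and 98.3 in tumor-derived and 245, 248, 157 and 247 in GNP libraries. With 3 counts in all in normal astrocytes, the ratio of tumor-derived to normal was 1600, with an exact 95% interval of 548 to 7770 that covers counting error only. Cks1b, a small subunit that binds cyclin-dependent kinases, had 8.6, 0, 7.31 and 2.15 CPM in normal, 85.4, 38.7, 54.4 and 37.1 in tumor-derived and 186, 194, 145 and 195 in GNP libraries. Its log2 fold change over normal astrocytes was 3.59 ± 0.89 (SE, adjusted p = 0.00923), and the 3 groups did not overlap. Ccnb1, the main mitotic cyclin, had no count in normal libraries and 33.5 ± 4.5 CPM (SD, n = 4) in tumor-derived ones, at least 114-fold higher. Cdk1, its kinase partner, averaged 6.88 ± 4.36 CPM in tumor-derived libraries and 28 ± 6.05 in GNPs (SD, n = 4 and 2).

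Ccnb2, the second B-type cyclin, did not pass. It had 0, 2.84, 0.516 and 16 CPM in normal, 29.1, 13.4, 22.8 and 16.4 in tumor-derived and 127, 119, 73.1 and 122 in GNP libraries, and normal replicate 4 lay inside the tumor-derived range. The log2 fold change was 2.10 ± 1.09 (SE, adjusted p = 0.159), and 4.24 (adjusted p = 0.0097) without that library.

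The chromosomal passenger complex corrects wrong attachments of chromosomes to the spindle, and all 4 of its members rose, with a summed level 22.9 times the normal one and 80.8% of that in GNPs. Cdca8 (borealin), which targets the complex to centromeres, had 0, 0, 1.81 and 5.46 CPM in normal, 413, 383, 389 and 455 in tumor-derived and 345, 358, 380 and 351 in GNP libraries. The tumor-derived libraries were the highest, just above the GNPs, and the log2 fold change over normal was 7.82 ± 1.07 (SE, adjusted p = 0.000322), or 9.32 without normal replicate 4. Cdca8 overlaps the counted gene 9930104L06Rik on the other strand, and whether the counting used strand is not stated by the labels used here. The same limit holds for Ccna2 (Exosc9), Bub3 (Fgfr2), Cenpf (Gm37239), Cdc20 (Elovl1), Ncapg (Lcorl), Nusap1 (Oip5), Tacc3 (Tmem129) and Prc1 (6330403N20Rik). Birc5 (survivin), the subunit that reads a histone mark at centromeres, had 0.473, 0.113, 0.086 and 1.95 CPM in normal, 137, 150, 246 and 146 in tumor-derived and 236, 248, 287 and 257 in GNP libraries. Tumor-derived replicate 3 alone reached the GNP range, and the log2 fold change was 8.01 ± 0.77 (SE, adjusted p = 3.84e-05), or 9.51 without normal replicate 4. Incenp, the scaffold, was present in normal astrocytes at 28.2 ± 21.3 CPM and rose to 117 ± 16.1 (SD, n = 4), while the kinase Aurkb had no normal count and was at least 16.7-fold higher at 4.91 ± 4.59 CPM. That bound rests on tumor-derived replicate 1, the highest (3.56, 1.95 and 2.4 CPM in the others), and was 8.98-fold without it.

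Of the 5 spindle assembly checkpoint genes, 3 rose, and the summed level was only 1.75 times the normal one with Bub3 making up most of it in normal astrocytes. Bub3, which binds the checkpoint kinases and carries them to kinetochores, had 82.1, 72.5, 214 and 134 CPM in normal, 148, 152, 200 and 145 in tumor-derived and 231, 245, 278 and 236 in GNP libraries. The normal libraries spanned the whole tumor-derived range, and the log2 fold change was 0.38 ± 0.33 (SE, adjusted p = 0.413). Bub3 overlaps Fgfr2 on the other strand, so reads of this pair may be shared if counting ignored strand. Bub1b (BubR1), the checkpoint protein that inhibits Cdc20, had no normal count, 33.4, 24.4, 33.8 and 21.2 CPM in tumor-derived and 117, 117, 97.8 and 121 in GNP libraries, at least 96.1-fold above normal. Bub1, a kinase that marks centromeres, lay near its floor outside the GNPs, with 0, 0, 0 and 0.488 CPM in normal, 0.125, 0.246, 0.434 and 0.864 in tumor-derived and 5.62, 7.33, 4.67 and 6.72 in GNP libraries. Normal and tumor-derived values of Bub1 overlapped (log2 fold change 1.72 ± 1.3, adjusted p = 0.333), and without normal replicate 4 its only normal counts were gone and the value was 5.31 (adjusted p = 0.028).

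All 11 centromere and kinetochore genes rose, and their summed level of 3.51–7.26 CPM in normal against 479–595 in tumor-derived libraries gave the highest ratio of any role, 105. Cenpa, the histone variant that marks centromeres, had 0, 4.54, 0 and 0.683 CPM in normal, 159, 154, 119 and 177 in tumor-derived and 184, 205, 167 and 191 in GNP libraries. The tumor-derived and GNP ranges overlapped, and the log2 fold change over normal was 6.93 ± 1.12 (SE, adjusted p = 0.00093), or 9.4 without normal replicate 2. Cenpn, which reads Cenpa nucleosomes, had 0, 1.36, 0.258 and 0.195 CPM in normal, 39.2, 56.9, 54.9 and 78.7 in tumor-derived and 138, 147, 171 and 141 in GNP libraries. Its 3 groups did not overlap, with a log2 fold change over normal of 7.03 ± 0.81 (SE, adjusted p = 0.000108), or 8.47 without normal replicate 2. The Ndc80 complex, which grips microtubule ends, was uneven. Its subunit Spc24 had 0.851, 0.794, 0.086 and 0 CPM in normal, 109, 120, 127 and 131 in tumor-derived and 65.2, 66.9, 74.4 and 60.1 in GNP libraries, with every tumor-derived library above every GNP library. Ndc80 itself, with 1 count in all normal libraries, had 3.74, 6.14, 4.99 and 5.85 CPM in tumor-derived and 17.6, 18.3, 43.3 and 19.7 in GNP libraries. Its ratio over normal was 216, with an exact 95% counting interval of 38.2 to 8560. Cenpk, of the constitutive centromere network, varied most within the tumor-derived group, with 0.125, 1.23, 0.759 and 9.31 CPM. Its log2 fold change of 5.61 ± 1.58 (SE, adjusted p = 0.0175) was 3.61 (adjusted p = 0.0827) without tumor-derived replicate 4. Without normal replicate 4 it was 8.05, but no normal count of Cenpk was then left, so the size of that value cannot be read from the data. For Nuf2, the partner of Ndc80, the log2 fold change was 4.11 ± 1.28 (SE, adjusted p = 0.0274) and rose to 8.95 once normal replicate 3 was left out, and its adjusted p was 0.0638 without tumor-derived replicate 1 and 0.0527 without tumor-derived replicate 3.

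Genes of anaphase onset rose in 4 of 5 cases. Ube2c, the ubiquitin-conjugating enzyme of the anaphase-promoting complex, had no normal count, 99.1, 40.3, 71.8 and 40.4 CPM in tumor-derived and 309, 329, 253 and 336 in GNP libraries, at least 214-fold above normal. Cdc20, the activator of that complex, had 4.07, 0, 4.9 and 0.878 CPM in normal, 156, 57.1, 106 and 46.2 in tumor-derived and 191, 207, 250 and 198 in GNP libraries. Its 3 groups did not overlap, and the log2 fold change over normal was 5.21 ± 0.9 (SE, adjusted p = 0.00144). Cdca5 (sororin), which protects sister chromatid cohesion, had no normal count and was at least 218-fold higher, at 64 ± 22.4 CPM (SD, n = 4). Pttg1 (securin), the inhibitor of separase, was the exception, with 72.5, 73, 23.7 and 46.6 CPM in normal, 75.9, 55.3, 70.2 and 52.7 in tumor-derived and 76.2, 77.1, 57.9 and 75.8 in GNP libraries. All 3 groups of Pttg1 overlapped, with a log2 fold change over normal of 0.26 ± 0.38 (SE, adjusted p = 0.629).

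Of 8 condensin and chromosome structure genes, 7 rose. Mki67 (chr7:135689788-135716379, mm10), whose protein coats mitotic chromosomes and is the usual stain for dividing cells, had 0.0946, 0.908, 0 and 0.0976 CPM in normal, 656, 934, 986 and 914 in tumor-derived and 946, 967, 931 and 962 in GNP libraries. The tumor-derived range took in the GNP range, and the log2 fold change over normal was 11.72 ± 0.72 (SE, adjusted p = 4.78e-06), or 13.57 without normal replicate 2. Ncapd2, a condensin subunit, had 28.4, 19.9, 56.2 and 35.3 CPM in normal, 150, 210, 336 and 127 in tumor-derived and 219, 220, 215 and 216 in GNP libraries. Its normal level was well above the floor, and the log2 fold change was 2.57 ± 0.4 (SE, adjusted p = 0.000694). Smc4, the condensin ATPase, did not pass, with 9.46, 1.59, 0.516 and 1.76 CPM in normal, 5.86, 9.46, 5.86 and 8.06 in tumor-derived and 40.8, 39.1, 61.9 and 39 in GNP libraries. Normal replicate 1 lay at the level of the highest tumor-derived library, and the log2 fold change of 1.16 ± 0.75 (SE, adjusted p = 0.256) was 2.53 (adjusted p = 0.00869) without it.

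**Figure D4:**
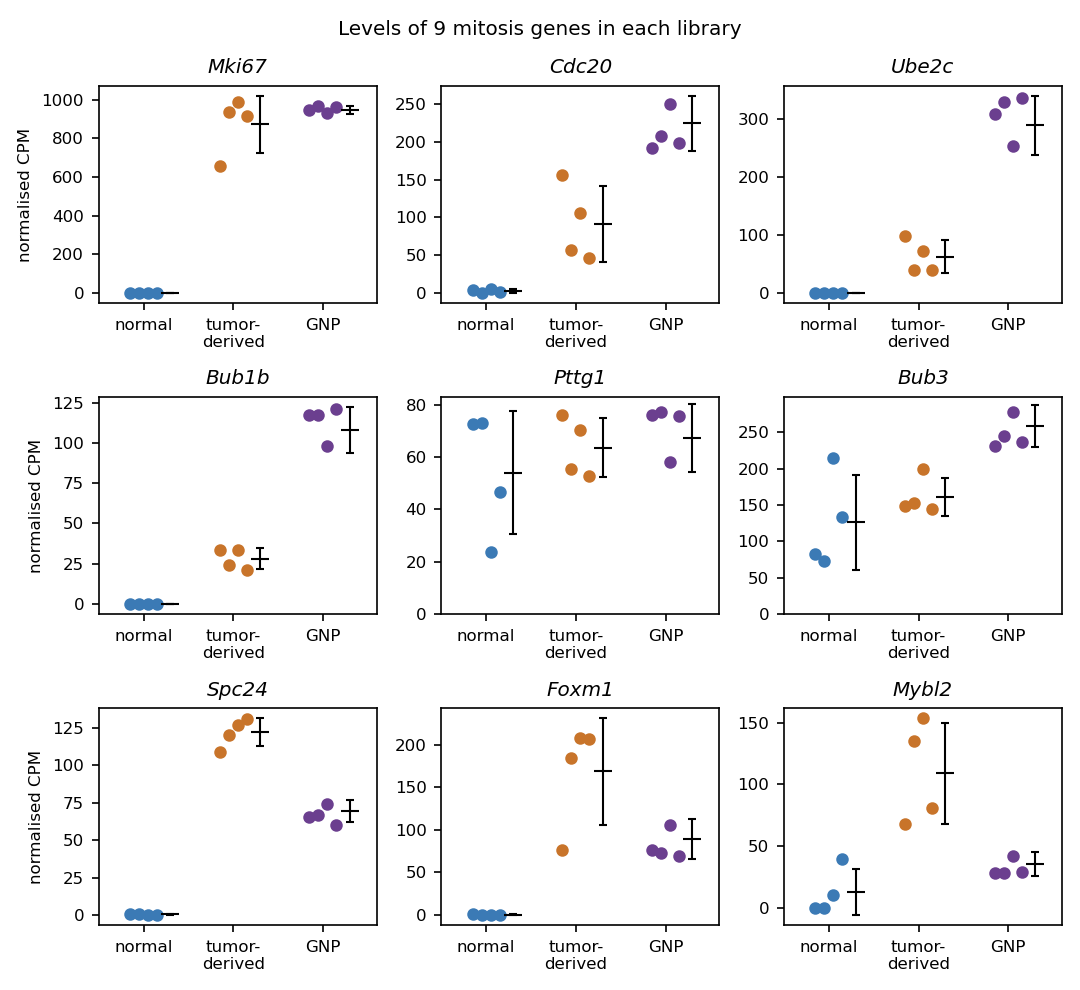
Normalised CPM of 9 mitosis genes in each library by group; points are libraries, and dashes with whiskers are the mean ± SD (n = 4, 4 and 2). Bub3 and Pttg1 overlap between normal and tumor-derived astrocytes, Spc24 and Mybl2 are higher in every tumor-derived library than in every GNP library, and Ube2c and Bub1b are lower.

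Spindle and centrosome genes rose in 7 of 9 cases. All 4 tumor-derived libraries were above all normal ones for each of the 9, against 20.9% of all genes. Tpx2, which activates Aurka at the spindle, had 0, 0.908, 1.38 and 0 CPM in normal, 134, 88.8, 112 and 105 in tumor-derived and 217, 219, 253 and 225 in GNP libraries, with a log2 fold change over normal of 7.57 ± 0.88 (SE, adjusted p = 0.000111), or 8.59 without normal replicate 3. Aurka, the kinase that matures centrosomes, had 8.89, 17.4, 0.086 and 0.293 CPM in normal, 85.3, 53.7, 66 and 43.9 in tumor-derived and 66.8, 71.1, 109 and 69.4 in GNP libraries. Its normal libraries fell into a higher and a lower pair. The log2 fold change of 3.25 ± 1.08 (SE, adjusted p = 0.0364) was 4.36 without normal replicate 2, and its adjusted p was 0.0577 to 0.0754 without normal replicate 1 or any 1 tumor-derived library. Aspm, which holds spindle poles together, had 2 counts in normal libraries, 3.49, 1.47, 0.976 and 2.3 CPM in tumor-derived and 21.1, 20.8, 17.7 and 21.6 in GNP libraries, so its tumor-derived mean was 10.6% of the GNP mean.

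Tacc3 and Hmmr, both microtubule-associated proteins of the spindle, did not pass. Tacc3 had 22.7, 0.454, 0.516 and 1.27 CPM in normal, 63.6, 29.5, 38.3 and 29.6 in tumor-derived and 90.3, 92, 111 and 86.1 in GNP libraries, with a log2 fold change over normal of 2.72 ± 1.06 (SE, adjusted p = 0.0668) and 5.75 (adjusted p = 0.000131) without normal replicate 1. Hmmr had 0, 0.454, 0 and 3.22 CPM in normal, 7.23, 4.3, 5.64 and 6.04 in tumor-derived and 8.75, 9.37, 22 and 9.07 in GNP libraries, with 2.67 ± 1.26 (SE, adjusted p = 0.123) and 5.29 (adjusted p = 0.00915) without normal replicate 4. Each had 1 normal library well above the other normal libraries, though below every tumor-derived library.

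For cytokinesis, Racgap1, a GTPase regulator of the central spindle, rose and Prc1, which bundles its microtubules, did not pass. Racgap1 had 4.82, 41.4, 12.8 and 14.5 CPM in normal, 126, 122, 126 and 130 in tumor-derived and 197, 213, 221 and 207 in GNP libraries. Its tumor-derived libraries were close together, and the log2 fold change over normal was 2.8 ± 0.53 (SE, adjusted p = 0.00223), or 3.58 without normal replicate 2. Prc1 had 0, 9.87, 0.946 and 0.195 CPM in normal, 16, 12.5, 19.8 and 12.7 in tumor-derived and 91.8, 97.3, 95 and 101 in GNP libraries. Its log2 fold change of 2.5 ± 1.11 (SE, adjusted p = 0.102) was 5.28 (adjusted p = 0.00114) without normal replicate 2. Ect2 averaged 0.358 ± 0.375 and Anln 0.464 ± 0.565 CPM (SD, n = 4) in tumor-derived libraries, about the 0.339 CPM that 3 counts amount to.

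The transcription regulators had the highest level relative to GNPs. Foxm1, the forkhead factor that activates late cell cycle genes, had 1.23, 0, 0 and 0 CPM in normal, 76.2, 184, 208 and 207 in tumor-derived and 76.2, 73.4, 106 and 69.7 in GNP libraries. Tumor-derived replicate 1 lay at the GNP level and the other 3 above it, and the log2 fold change over normal was 9.05 ± 1.06 (SE, adjusted p = 0.00012). It was 13.91 without normal replicate 1, which held the only normal counts of Foxm1. With no normal count left, the size of that value cannot be read from the data. Foxm1 overlaps the counted gene 4933413G19Rik on the same strand. Mybl2 (B-Myb), which binds the same genes with the MuvB complex, had 0.284, 0, 10.8 and 39.6 CPM in normal, 68.3, 135, 154 and 81.2 in tumor-derived and 28.3, 28.6, 42.3 and 29.1 in GNP libraries. Normal replicate 4 reached the GNP range, and the log2 fold change over normal of 3.12 ± 1.24 (SE, adjusted p = 0.071) was 4.88 (adjusted p = 0.0158) without it. Fam64a, a mitotic protein bound by the anaphase-promoting complex, had no normal count, 64.2, 55.4, 79.4 and 48 CPM in tumor-derived and 149, 153, 150 and 146 in GNP libraries, at least 210-fold above normal.

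The summed level in normal astrocytes came mostly from a few genes. Bub3, Pttg1, Incenp, Ncapd2 and Racgap1, named after their values were seen, made up 81.2% of it. Of the other members, 11 had no count in any normal library, 14 had a count in 1 library and 8 in 2. Of the 9 members that did not pass against tumor-derived astrocytes, Ccnb2, Bub1, Smc4, Hmmr, Tacc3, Prc1 and Mybl2 passed without 1 normal library, a different one for different genes, and Bub3 and Pttg1 passed under no setting.

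**Figure D5:**
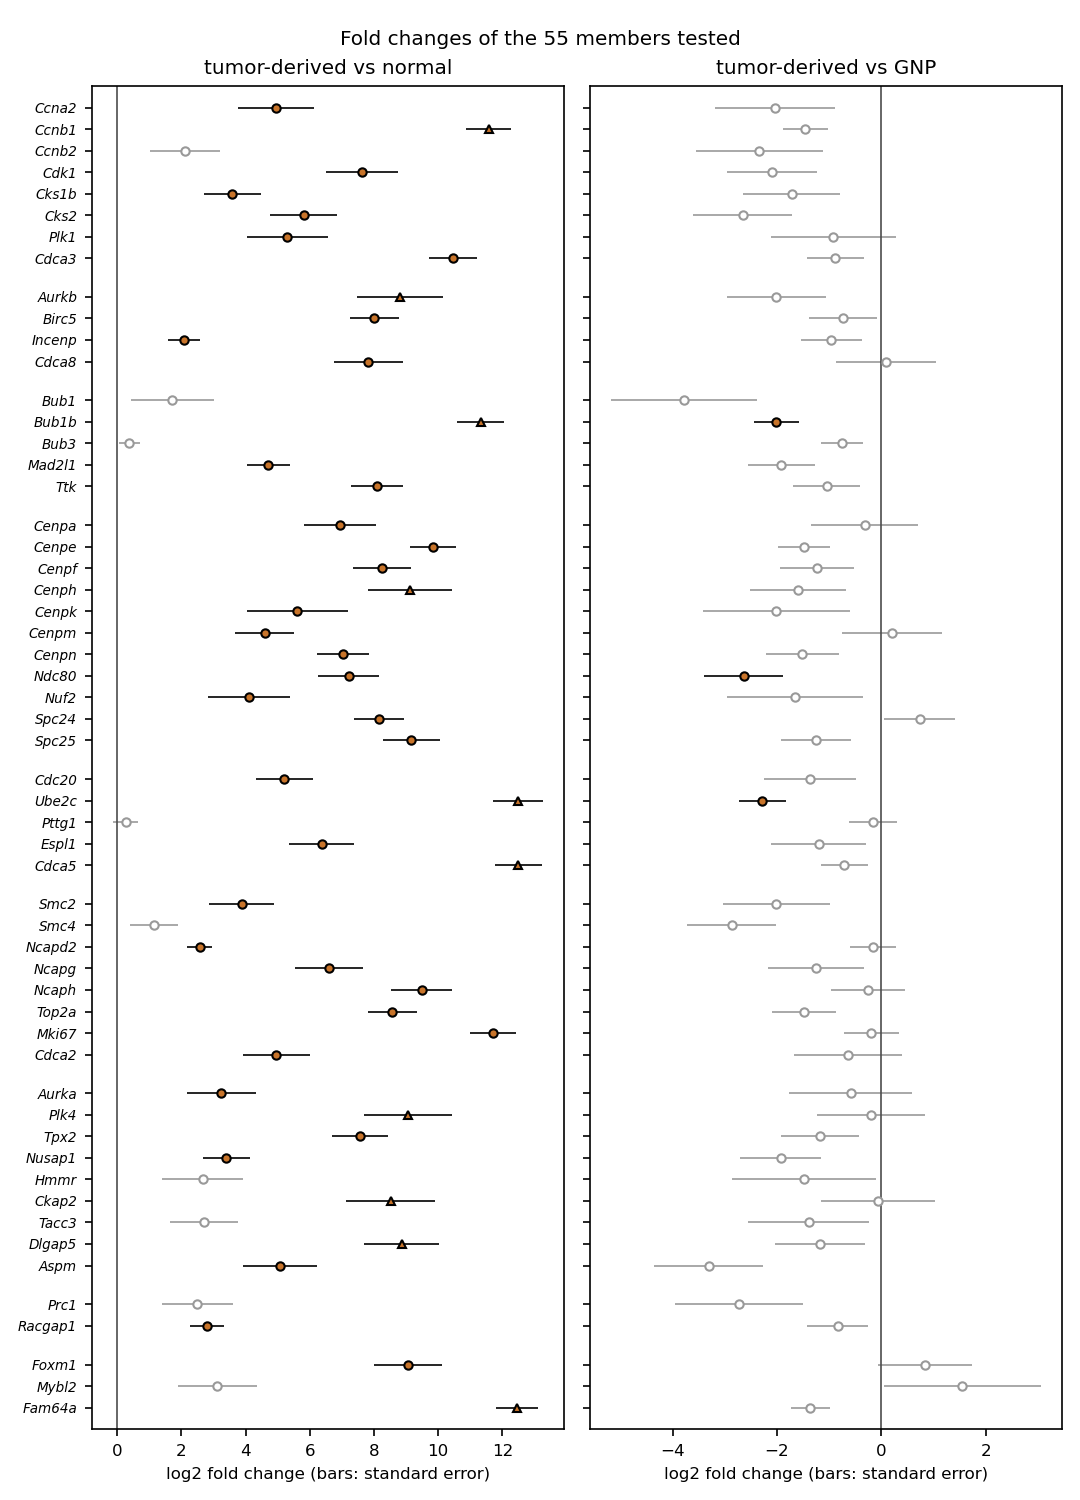
Fitted log2 fold change of each of the 55 tested members, ordered by role, in tumor-derived against normal astrocytes (left) and against GNPs (right); bars are standard errors, filled symbols passed an adjusted p of 0.05, and triangles mark members with no count in any normal library, whose fitted value depends on the prior count. Filled symbols fill most of the left panel, while Bub1b, Ndc80 and Ube2c are the 3 filled in the right panel.

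Against GNPs, most mitosis genes had a lower level in tumor-derived astrocytes, but few passed the test as single genes and their number depended on the settings. Of 55 members, 3 were called lower (5.45%, against 4.36% of all genes), 0 were called higher (7.84% of all genes) and 52 did not pass. The count called lower was 10 with DESeq2 and 16 with the 12 libraries apart. With only the 2 groups in the fit it was 27, beside 2 called higher. Over the 7 other settings the count called lower ranged from 3 to 27, so the share of 5.45% depended on the settings. The shares of all genes called under those settings are not given here, so these counts have no background beside them. The median log2 fold change was -1.26, against -0.03 over all genes, and 50 of 55 values were negative. Because the labels leave culture of the GNPs unsettled, any effect of culture and of cell type cannot be told apart in comparisons with them. With GNP n = 2 in the test, a p that misses the threshold does not show that the groups had the same level. All 4 tumor-derived libraries were below all 4 GNP libraries for 37 members (67.3%, against 22.1% of all genes) and above them for Cdca8, Spc24 and Mybl2 (5.45%, against 25.8%).

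The 3 called lower were Ube2c, with a log2 fold change of -2.28 ± 0.45 (SE, adjusted p = 0.0156) and a tumor-derived mean of 21.8% of the GNP mean, Bub1b, with -2.01 ± 0.44 (adjusted p = 0.0227) and 26.1%, and Ndc80, with -2.64 ± 0.75 (adjusted p = 0.0402) and 16.8%. None of them held in every setting: without GNP replicate 3 the adjusted p was 0.0587 for Ube2c, 0.0851 for Bub1b and 0.299 for Ndc80, whose log2 fold change was then -1.94. Bub1b also lost its call without tumor-derived replicate 2, 3 or 4, and Ndc80 without any 1 tumor-derived library. The most negative fold changes belonged to members that did not pass, Bub1 with -3.78 ± 1.4 (SE, adjusted p = 0.0971), Aspm with -3.31 ± 1.04 (adjusted p = 0.058) and Smc4 with -2.87 ± 0.86 (adjusted p = 0.0503). The highest values belonged to Mybl2 with 1.55 ± 1.5 (adjusted p = 0.535), Foxm1 with 0.84 ± 0.9 (adjusted p = 0.579) and Spc24 with 0.74 ± 0.68 (adjusted p = 0.512).

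By role, the summed tumor-derived level was 124% of the GNP level for the transcription regulators with Fam64a, 80.8% for the chromosomal passenger complex and 76.7% for condensin and chromosome structure. It was 61.7% for kinetochore genes, 49.5% for the checkpoint, 46.1% for spindle genes, 45.7% for cytokinesis, 41.7% for anaphase onset and 35.5% for mitotic entry. The order rests on few abundant genes in several roles, and neighbours in it were not tested against each other. Tumor-derived and GNP libraries did not overlap for all 8 entry genes and all 5 checkpoint genes, each lower in tumor-derived astrocytes. Of all genes, 22.1% were below in this way. Mki67, at 92.3% of its GNP mean, and Ube2c, at 21.8%, show how far single members of this program differed in that comparison.

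Members also varied within a group. The highest tumor-derived library was a median of 1.98 times the lowest over the members, with a range of 1.06 to 74.6, the highest being Cenpk. In GNPs, of which 3 libraries were nearly alike, that median was 1.31. Tumor-derived replicate 1 had the highest value of the group for 26 of the 57 genes, including Cdc20, Ube2c, Cks1b, Aurka and Tpx2, and replicate 2 for 4. Replicate 1 was at the same time the lowest of the 4 for Mki67, Foxm1 and Mybl2.

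Normal astrocytes against GNPs gave the widest separation. Of 55 members, 52 (94.5%, against 14.1% of all genes) were lower in normal astrocytes, 0 were higher (13.4% of all genes) and 3 did not pass, Bub3, Pttg1 and Mybl2. The median log2 fold change was -7.73, against -0.1 over all genes, and the normal summed level was 4.91% of the GNP level. All normal libraries lay below all GNP libraries for 53 of the 55 tested (22% of all genes) and above them for 0 (19.5% of all genes). Pttg1 differed least, with -0.42 (adjusted p = 0.535), followed by Bub3 with -1.13 (adjusted p = 0.0519) and Mybl2 with -1.58 (adjusted p = 0.425). Bub3 passed as lower without normal replicate 3 (-1.52, adjusted p = 0.00585), with upper quartile factors (0.027), with the filter at 10 CPM (0.0381) and with the 12 libraries apart (0.018). Without normal replicate 4, Mybl2 had -3.33 (adjusted p = 0.0776). This comparison shares its libraries with both others, so the 3 sets of values are not independent.

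Other mitosis genes outside the 57, such as kinesins, cohesin and augmin subunits, moved less uniformly. Comparing tumor-derived with normal astrocytes, 38 of the 80 with enough counts passed as higher (47.5%, against 17.4% of all genes) and 5 as lower (6.25%, against 16%), with a median log2 fold change of 1.85. The 2 highest-expressed that rose were Anapc5, a subunit of the anaphase-promoting complex, with 1.67 ± 0.27 (SE, adjusted p = 0.00105), and Ncaph2, of condensin II, with 1.31 ± 0.28 (adjusted p = 0.00486). The 2 highest-expressed that fell were Ckap5, a microtubule polymerase, with -1.49 ± 0.33 (adjusted p = 0.00487), and Stag2, a cohesin subunit, with -1.65 ± 0.51 (adjusted p = 0.0273). Against GNPs, Anapc5 and Ncaph2 were the 2 called higher, with 1.33 ± 0.35 (SE, adjusted p = 0.031) and 1.59 ± 0.37 (adjusted p = 0.0199), and Ckap5, Stag2 and Kntc1 the 3 called lower. The share called higher, 2.5%, was below the 7.84% of all genes, and the share called lower, 3.75%, was near the 4.36% of all genes.

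Of 29 DNA replication genes, 24 rose (82.8%, against 17.4% of all genes) and 0 fell (16% of all genes) in tumor-derived against normal astrocytes. Their median log2 fold change was 3.58. Mcm6, of the replicative helicase, rose by 5.55 ± 0.58 (SE, adjusted p = 6e-05) and Rfc2, of the clamp loader, by 2.23 ± 0.27 (adjusted p = 0.000147) on the log2 scale. Of 17 genes of the DREAM complex, the Rb family and cell cycle inhibitors, 4 rose and 4 fell, near the all-gene shares of 17.4% and 16%. Tfdp2, a partner of E2F factors, rose by 2.57 ± 0.63 (SE, adjusted p = 0.00906) and Cdkn1c, an inhibitor of cyclin-dependent kinases, by 6 ± 1.32 (adjusted p = 0.00527). Cdkn2d, an inhibitor of Cdk4 and Cdk6, fell by 1.28 (SE 0.34, adjusted p = 0.0143) and Btg1, an antiproliferative gene, by 2.38 (SE 0.47, adjusted p = 0.00278).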

How the data were processed

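The deposited table holds raw read counts per gene, made by the authors with FastQC and STAR on mm10, per the submitters' processing notes; the counting program, annotation and strand setting are not stated by the labels used here. Of 47284 lines, 767 repeats with identical counts were removed, and 27 symbols that a spreadsheet had turned into dates were restored from their Ensembl genes. The members and the other lists were chosen with earlier results of these data known.

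Counts were tested with edgeR 4.0.16 (R 4.3.3), a quasi-likelihood F-test with robust dispersions, TMM normalisation and 3 group means. Genes were kept by filterByExpr (minimum count 10, minimum total 15), which left 14393. GNP replicates 1, 2 and 4 were summed, giving 10 samples and 7 residual degrees of freedom. P-values were Benjamini-Hochberg adjusted over all genes and called under 0.05. A standard error is the log2 fold change divided by the square root of F. CPM use TMM factors over the 12 libraries. A count of 0 allows up to 3 counts, which is 0.294 CPM in normal, 0.339 in tumor-derived and 0.315 in GNP libraries; bounds and intervals cover counting error only. The test of tumor-derived against normal astrocytes was tried on simulated counts, with changes placed in well-counted genes. Comparisons with GNPs and genes with almost no normal count were not covered.

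Per-library values are given for the 2 highest-expressed members of each role, members whose call differs from most of their role, and the 3 largest and 3 smallest folds against GNPs; in other lists, the 2 highest-expressed called in each direction are named. A few further members were named after their values were seen. Alternatives were DESeq2 1.42.0, RLE and upper quartile factors, no filter, a stricter filter at 10 CPM, the 12 libraries apart, only the 2 groups compared, and leaving out each sample.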

Additional observations from a re-analysis of the deposited data

Results flagged for a closer look

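In 51 groups of 4 libraries (normal and tumor-derived, 27 members), 12 had 1 library so far from the other 3 that its gap exceeded Dixon's 95% critical value, which chance gives in about 1 in 20 groups of normally distributed values. That rate does not apply to groups of a few counts among zeros, where the gap can equal the whole range, so the number of such groups is given as a description. In normal astrocytes, replicate 1 stood above the others for Smc4 at 9.46 CPM (others 0.516–1.76), Tacc3 at 22.7 (others 0.454–1.27) and Foxm1 at 1.23 (others 0). Normal replicate 2 stood above for Cenpa at 4.54 (others 0–0.683), Mki67 at 0.908 (others 0–0.0976), Aspm at 0.227 (others 0) and Prc1 at 9.87 (others 0–0.946). Normal replicate 4 stood above for Cdca3 at 0.293 (others 0), Bub1 at 0.488 (others 0) and Hmmr at 3.22 (others 0–0.454). In tumor-derived astrocytes, replicate 3 was the highest for Birc5 at 246 CPM (others 137–150) and Bub3 at 200 (others 145–152).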

How the results depend on the processing

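No value of a member changed direction where it was called. The count of members higher in tumor-derived than in normal astrocytes was 46, with 43 to 48 under the 7 other settings and 44 to 50 when 1 sample was left out. The count lower in normal astrocytes than in GNPs was 52, with 44 to 53 and 45 to 53. Against GNPs the counts depended on the settings: the members lower in tumor-derived astrocytes numbered 3, but 6 with the filter at 10 CPM, 10 with DESeq2, 16 with the 12 libraries apart and 27 with only the 2 groups compared, which also called 2 higher; leaving out samples gave 0 to 3. Shares of all genes called under those settings are not given beside these counts. The median log2 fold change of the members against GNPs lay between -1.36 and -1.14. Calls over normal astrocytes were lost in 4 members: without a filter the adjusted p was 0.128 for Aurka, 0.0928 for Nuf2 and 0.0543 for Ccna2, and without 1 tumor-derived library it was 0.0827 for Cenpk. The summed GNP level was 6480 CPM with RLE and 6980 with upper quartile factors, and the normal one 287 with the latter, which moved the all-gene median against normal to 0.25. With TTTAAA as the CHR letters, 21.3% of member promoters matched (10 of 47), and 1916 of 16372 of all. No paired analysis was possible because the labels give no replicate numbers shared between groups. The cause was not tested for any of these. Tumor-derived levels of Ect2, Anln and Bub1 lay near 3 counts, where counting error is large.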
